A study of Danio rerio with 4 samples.

Results

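The genes described here encode SR proteins, hnRNPs and protein subunits of the spliceosome. They were chosen by name alone, as the rows of the deposited table whose gene symbol begins with srsf, hnrnp, sf3a, sf3b, snrp or prpf. This gave 73 of 25769 genes: 16 srsf genes, 24 hnrnp genes, 9 sf3a and sf3b genes, 11 snrp genes and 13 prpf genes. A further 4 genes carry such a symbol only in a separate list of identifiers and symbols, and they were not counted. All 73 were listed in all 4 libraries and passed the filter on low counts of every test, and 67 had at least 100 reads in each library. The other 6 were hnrnpa0a, hnrnpa0l.1, hnrnpa3, hnrnph3, snrpf and srsf7b.

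The study injected AB/TL zebrafish embryos with 4-thiouridine (4sU) at the 1-cell stage and measured whole embryos by bulk SLAM-Seq. Transcripts made from then on incorporate 4sU, and treatment with iodoacetamide turns its positions into T-to-C changes in the reads. The groups were embryos at 6 hpf and embryos at 1 hpf, all injected with 4sU, so that no uninjected group entered the comparisons. For the later samples the labels give 6 hpf, while the study's methods and figure give 30% epiboly and 4.8 hpf. At both stages the labels give 20 mM 4sU and the methods 50 mM. The methods also give 4-cell embryos at 1 hpf and 25 embryos pooled per sample. Each stage had 1 polyA+ library (single-end) and 1 ribo-depleted library (total RNA, paired-end, another instrument), so library type, kit, layout and instrument changed together, and every value below is of a single library.

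The libraries held 9058807 to 22521675 reads over all genes. Of the marker lists, 10 maternal genes summed to 2013 and 1530 CPM (reads scaled to the same library total) in the 6 hpf polyA+ and ribo-depleted libraries, against 6630 and 4657 in the 1 hpf libraries. Of these, ddx4 went the other way (526 and 153 CPM at 6 hpf, against 310 and 93.9), as did npm2b in the polyA+ libraries (65.3 against 58.9). The 12 zygotic genes summed to 2262 and 1630 at 6 hpf, against 3.496 and 7.93 at 1 hpf. Among them krt8 (847 and 541 CPM at 6 hpf) is also in the list of the enveloping layer. Markers of the enveloping layer (4 genes: 1486 and 992 at 6 hpf, against 1.46 and 4.93 at 1 hpf) and of the yolk syncytial layer (2 genes: 131 and 140 at 6 hpf, against 0.0552 and 0 at 1 hpf) differed between the stages as well, and slc26a1 of the yolk syncytial list was at 0 in both 1 hpf libraries. Their part in the results below was not tested. In whole embryos, fewer cells of a type and less RNA per cell cannot be told apart.

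Splicing removes introns from nascent transcripts. SR proteins mostly bind exons and help splice sites to be used, hnRNPs coat nascent RNA and often act against them, the SF3A and SF3B complexes of the U2 snRNP hold the branch site, Sm proteins form the ring around the spliceosomal snRNAs, and many PRPF proteins belong to the tri-snRNP or act in its activation. The egg stores mRNA of most of these genes, because the early embryo divides for hours before its own genome is broadly transcribed. The roles given below are those known in human cells and in yeast.

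At 6 hpf nearly all of these genes had both stored and new RNA. The NTR (new-to-total ratio), which is GRAND-SLAM's estimate of how much of a gene's RNA is labeled, had medians of 13.8% (polyA+) and 15.6% (ribo-depleted) over the 69 members with at least 100 reads in each. Over all genes with at least 100 reads in the library, the medians were 8.04% and 8.49%. An NTR of at least 5% was reached by 62 of the 69 members (89.9%) with polyA+ selection and by 64 (92.8%) with ribo-depletion, while the shares over all genes were 58.9% and 60.5%. An NTR above 50% was the exception, with 8.70% and 10.1% of members and 12.3% and 13.3% of all genes. These values are descriptions of single libraries and carry no test.

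The 2 library types gave like NTRs for most members. Their values lay within 5 points of each other for 54 of the 69, with a median absolute difference of 1.95 points and a largest one of 22.3 points, in sf3a1. Weighted by reads, 16.1% and 15.2% of the members' RNA was new at 6 hpf, against 0.149% and 1.35% at 1 hpf. The same shares over all genes were 16.4% and 18.7% at 6 hpf, and 0.188% and 1.40% at 1 hpf. For 70 members, the 6 hpf library of each type had more new CPM than its 1 hpf counterpart.

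**Figure D1:**
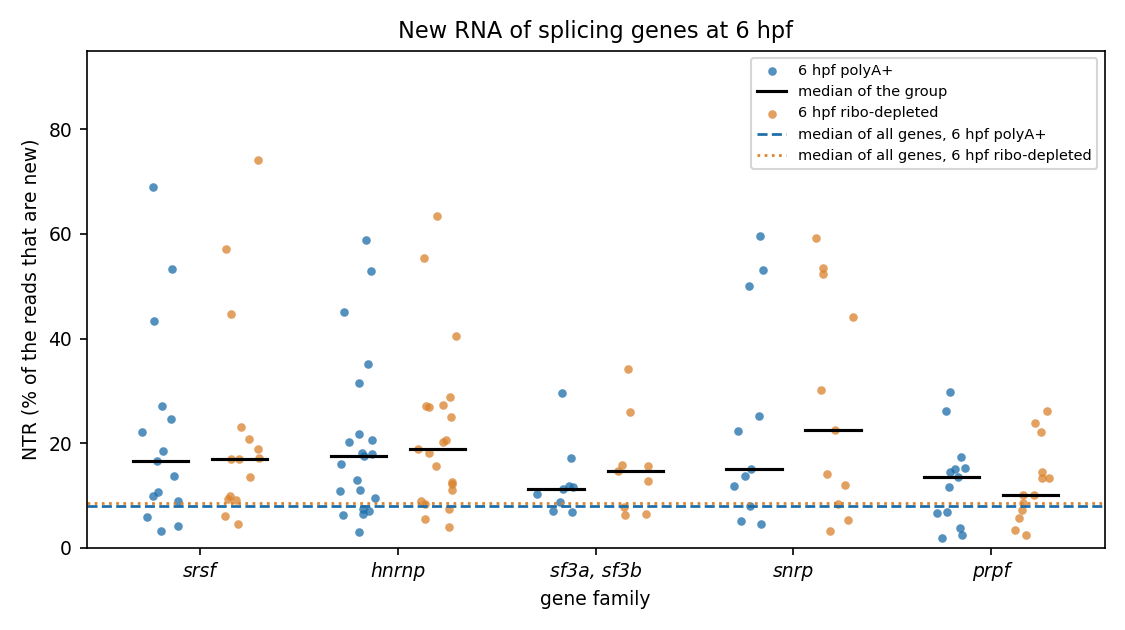
NTR at 6 hpf (y axis, percent) of the 69 members with at least 100 reads in both libraries, by gene family, with the polyA+ library left of the ribo-depleted library. Points are genes, black bars are family medians and the dashed and dotted lines are the medians over all genes, 8.04% and 8.49%. The family medians lie above these lines, and a few srsf, hnrnp and snrp genes lie above 50%.

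The snrp genes had the widest spread of the 5 families, with quartiles of 9.87% and 37.6% in the polyA+ library and 10.1% and 48.2% in the ribo-depleted library. The highest NTRs among them belonged to Sm core proteins. An NTR above 20% in both 6 hpf libraries was found in 5 of 7 Sm genes and in 0 of the 4 other snrp genes. This grouping was made after their values were seen. Over all genes with at least 100 reads, 2740 of 9058 (polyA+) and 3421 of 11113 (ribo-depleted) were above 20% in the single library. The split was not clean: snrpa1, a U2 snRNP gene, had 11.8% and 30.2%, and the Sm gene snrpd3l had 15.0% and 14.2%. snrpg, which encodes the Sm ring protein G, had an NTR of 59.5% and 59.3%, snrpd2 (Sm D2) had 53.2% and 52.4%, and snrpf (Sm F) had 49.98% and 53.5%. snrpb, which encodes the Sm B protein, was the most abundant Sm gene and had an NTR of only 13.7% and 12.0%. The lowest were snrpc (the U1 protein C) at 4.63% and 3.30% and snrpb2 (the U2 protein B″) at 5.05% and 5.33%.

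The sf3a and sf3b genes ranged from 6.89% to 29.5% in the polyA+ library and from 6.37% to 34.2% in the ribo-depleted library. sf3b1, the largest SF3B subunit and the one that clamps the branch site, had 29.5% and 26.0%. The prpf genes had the lowest NTR of the 5 families weighted by reads, 10.2% and 11.0%. By median, the sf3a and sf3b genes were lowest in the polyA+ library, 11.2% against 13.6% for the prpf genes. In the ribo-depleted library the prpf genes had the lowest median, 10.2% against 14.7%. No gene of either family exceeded 50%. prpf4bb, a gene for a PRP4 kinase, had 2.52% and 2.36%, and prpf6, a tri-snRNP bridge protein, had 3.84% and 3.45%.

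The highest NTR of all members belonged to srsf5a, an SR protein gene. It had an NTR of 68.9% and 74.0% at 6 hpf, against 0 and 0.41% at 1 hpf. Its share of covered T bases that were converted was 5.61% (95% Wilson interval 5.48 to 5.73%) and 4.81% (4.69 to 4.94%) in the polyA+ and ribo-depleted libraries of 6 hpf, against 0.171% (0.102 to 0.286%) and 0.108% (0.0588 to 0.199%) at 1 hpf. These intervals do not overlap between the stages and cover counting error only.

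By the mean of both libraries hnrnpa0a, which encodes an hnRNP of the A/B type, came next with 58.8% and 63.3%, followed by snrpg. The SR protein gene srsf2b had 53.4% and 57.2%, and hnrnpa0b, the paralogue of hnrnpa0a, had 53.0% and 55.5%. With snrpd2, these were the 6 members above 50% in both libraries. As a yardstick, genes with under 1 read in both 1 hpf libraries and at least 100 reads at 6 hpf had a median NTR of 70.7% (141 genes) in the polyA+ library and 78.3% (191 genes) in the ribo-depleted library, so the NTR of genes with hardly any read at 1 hpf fell short of 100%.

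Under 5% in both libraries stood 5 members. Besides prpf4bb, prpf6 and snrpc these were hnrnpua, a gene of the nuclear scaffold protein hnRNP U, with 3.03% and 3.96%, and srsf7a, an SR protein gene, with 4.10% and 4.52%.

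Some paralogues differed in their share of new RNA. The members hold 11 pairs whose symbols differ only in a final a or b, leaving aside snrpa and snrpb, and prpf38a and prpf38b, which encode different proteins. In 10 pairs both genes had at least 100 reads in both 6 hpf libraries, and in 5 of these the NTRs were more than 10 points apart on average. The same count was not made for other pairs of members, so such differences cannot be called particular to paralogues. The counting may split reads between copies that are nearly identical, which was not tested.

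srsf5b had an NTR of 3.19% and 9.29% at 6 hpf, so srsf5a exceeded its paralogue by 65.7 and 64.7 points. The balance of their levels turned over as well. The ratio of srsf5a to srsf5b in TPM (reads divided by gene length and scaled to the same sum in each library) was 3.01 and 3.51 at 6 hpf, against 0.293 and 0.374 at 1 hpf.

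Of the srsf2 pair, srsf2a had the lower NTR, 18.4% and 17.2%, and by far the higher level, with 43.3 and 19.1 times the TPM of srsf2b at 6 hpf. srsf6a (5.91% and 6.08%) and srsf6b (24.6% and 23.1%) differed in the same manner, the more abundant copy having the lower NTR. The srsf5 pair at 6 hpf and the hnrnpu pair went the other way. hnrnpub had 7.49 and 6.85 times the TPM of hnrnpua at 6 hpf, and an NTR of 18.0% and 18.9% against 3.03% and 3.96%. In the prpf4b pair, prpf4ba had 14.5% and 23.9%, exceeding prpf4bb by 12.0 and 21.6 points, but it also had an NTR of 7.14% in the 1 hpf ribo-depleted library.

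**Figure D2:**
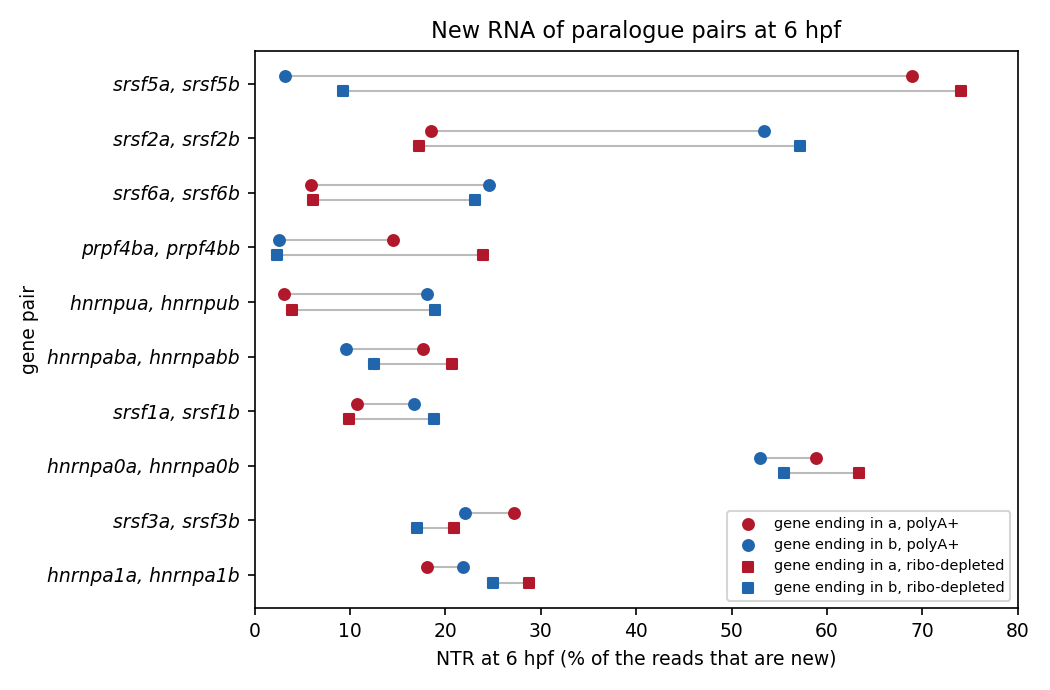
NTR at 6 hpf (x axis, percent) of 10 paralogue pairs, the gene ending in a in red and the gene ending in b in blue. Circles are the polyA+ library and squares, below them, the ribo-depleted library. The srsf5 genes are 65.7 and 64.7 points apart, while the hnrnpa1 genes change order between the libraries.

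The comparison of total reads between the stages asks which of these mRNAs became more or less abundant as the embryo's genome was activated. Total reads rose at 6 hpf for srsf5a, hnrnpa0a, hnrnpa0b, hnrnpul1, hnrnpl, srsf2b, hnrnpd and snrpd1, and fell for hnrnph3 and hnrnpa0l.1. These 8 higher members of 73 (11.0%) stand beside 18.3% of all 16315 genes tested, and the 2 lower members (2.74%) beside 14.4% of all genes, so fewer members than genes at large were called in each direction by edgeR. The calls come from edgeR's quasi-likelihood test with library type as a covariate and Benjamini-Hochberg adjustment over all genes at a threshold of 0.05. DESeq2 called 22 members higher (30.1%, beside 14.4% of all genes) and 1 lower (1.37%, beside 9.08%), so under it the share of higher calls was larger among members than among all genes.

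Most members nonetheless leaned upward. The log2 change, 6 hpf over 1 hpf, was above 0 for 67 of 73 members (91.8%) and for 53.2% of all genes, with a median of 0.79 for members and 0.10 for all genes. The 9 sf3a and sf3b genes were all above 0 with a median of 0.75, and none passed the edgeR test, while DESeq2 called sf3b2 and sf3b3 higher. The size depended on the library type: within the polyA+ libraries the median was 0.43 for members and 0.08 for all genes, and within the ribo-depleted libraries it was 1.18 for members and 0.09 for all genes. The sign was the same in both types for 67 members, a count not made over all genes. Scaling by total counts shifted the median of all genes to -0.06 and that of the members to 0.64, with 66 members above 0. On the TPM scale, tried after seeing the data, the ribo-depleted median was 0.36 for members (60 of 73 above 0) and -0.61 for all genes, and the polyA+ median was 0.43 and 0.08, so TPM values of the ribo-depleted libraries show smaller rises than the folds of the test.

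srsf5a had 373 and 56.0 TPM in the 6 hpf polyA+ and ribo-depleted libraries, against 26.7 and 4.13 TPM at 1 hpf. The 6 hpf library was the higher one within each library type, by 13.9-fold and 23.4-fold on the TMM-scaled counts of the test, and the log2 change was 4.17 ± 0.64 (SE, edgeR adjusted p = 1.07e-09). hnrnpa0a had 123 and 12.2 TPM at 6 hpf, against 10.2 and 0.889 TPM at 1 hpf (log2 change 4.05 ± 0.51, edgeR adjusted p = 7.59e-14). Its 1 hpf values rest on 93.5 and 26.5 reads.

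hnrnpa0b, its more abundant paralogue, had 1104 and 56.1 TPM at 6 hpf, against 184 and 7.95 TPM at 1 hpf (log2 change 3.09 ± 0.65, edgeR adjusted p = 1.94e-05). For srsf5a and hnrnpa0a both 6 hpf libraries lay above both 1 hpf libraries, while for hnrnpa0b the 6 hpf ribo-depleted library lay below the 1 hpf polyA+ library and the stages were apart only within a library type. Without the 6 hpf ribo-depleted library, in a fit with stage alone, srsf5a and hnrnpa0a still passed the threshold, and without any one of the other 3 libraries no member did, although 814 to 1627 of all genes were called higher and 48 to 241 lower. With all 4 libraries and stage alone in the design, edgeR called 0 members in either direction, beside 9.85% of all genes higher and 2.27% lower.

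The remaining rises were smaller. hnrnpul1, whose protein is related to hnRNP U, had 82.4 and 40.2 TPM at 6 hpf, against 21.7 and 22.2 TPM at 1 hpf, which puts both 6 hpf libraries above both 1 hpf libraries (log2 change 1.78 ± 0.48, edgeR adjusted p = 0.00111). hnrnpl, which binds CA-rich RNA, had 509 and 241 TPM against 148 and 129 TPM, likewise without overlap (1.74 ± 0.57, edgeR adjusted p = 0.00979). srsf2b had 25.3 and 12.7 TPM against 11.1 and 6.89 TPM, also without overlap (1.43 ± 0.45, edgeR adjusted p = 0.00630).

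The 2 falls were of genes with few reads. hnrnph3 had 21.2 and 38.5 reads at 6 hpf, against 76.5 and 143 reads at 1 hpf, and hnrnpa0l.1 had 27 and 67 reads, against 134 and 152 reads. Their log2 changes were -1.62 ± 0.52 (edgeR adjusted p = 0.00830) and -1.47 ± 0.52 (edgeR adjusted p = 0.0185), and DESeq2 called neither (adjusted p = 0.157 and 0.203). hnrnpc, an hnRNP that packages nascent RNA, was the only member that DESeq2 called lower. It had 218 and 159 TPM at 6 hpf, against 805 and 461 TPM at 1 hpf, and a log2 change of -1.31 ± 0.60 that missed the edgeR threshold (adjusted p = 0.0800). With total-count scaling or without the filter on low counts, edgeR did call it lower. In stored reads hnrnpc was called lower by DESeq2 and by edgeR under either of these settings, but not by the main edgeR test.

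**Figure D3:**
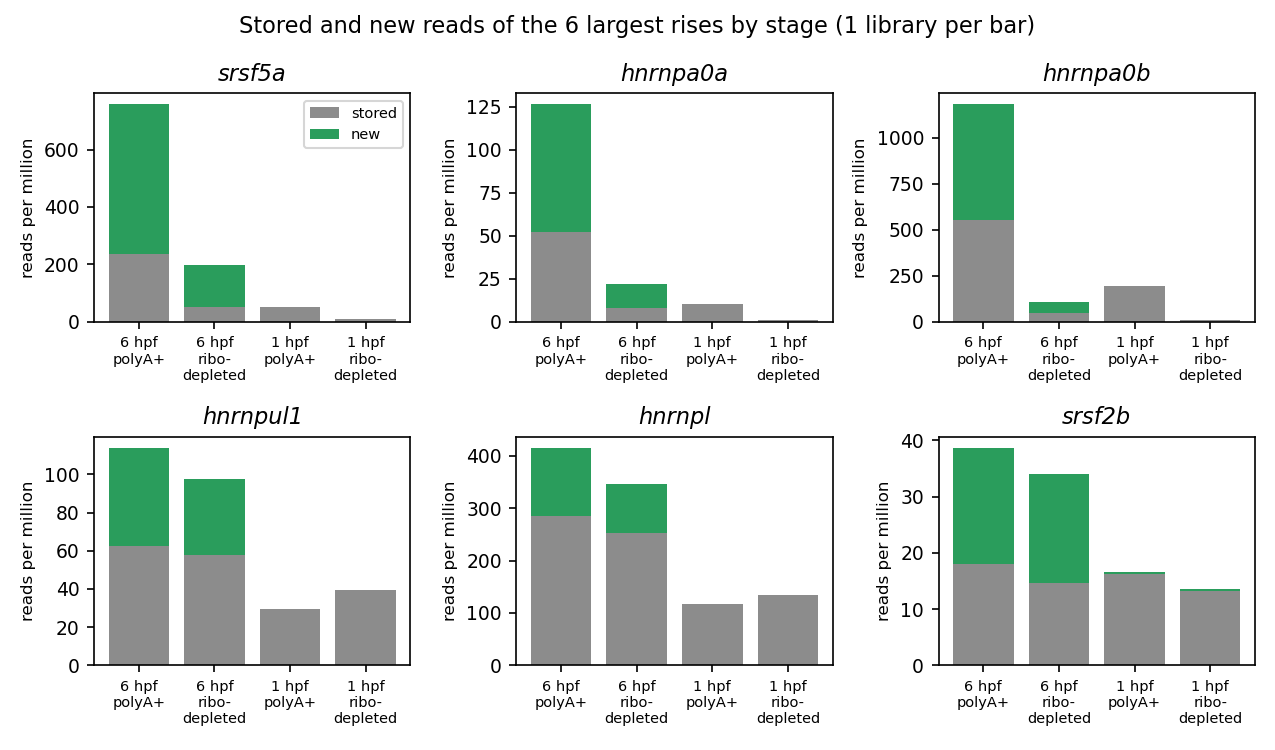
Stored (gray) and new (green) CPM in each library for the 6 largest rises of total reads by stage, with the 6 hpf libraries left of the 1 hpf libraries and 1 library per bar. New reads are absent or nearly so in the 1 hpf bars, and for srsf5a they reach 522 and 148 CPM at 6 hpf.

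Splitting the reads by NTR showed where the rises lay. srsf5a had 522 and 148 new CPM at 6 hpf, against 0 and 0.0441 at 1 hpf, and 236 and 51.8 stored CPM, against 53.0 and 10.7. In srsf2b the stored reads, by the deposited NTR, were nearly level, 18.0 and 14.6 CPM at 6 hpf against 16.3 and 13.3 at 1 hpf. The rescaled NTR used further below gives lower stored values at 6 hpf. By the deposited NTR, new reads of srsf2b were 20.6 and 19.5 against 0.305 and 0.242. hnrnpl had 284 and 252 stored CPM at 6 hpf, against 118 and 135 at 1 hpf. Its stored change missed the edgeR threshold (log2 change 1.24, adjusted p = 0.0831), while DESeq2 called it higher. The ratio of stored CPM, 6 hpf over 1 hpf, was 2.41 and 1.87 in hnrnpl. It was 4.45 and 4.84 in srsf5a, 5.05 and 6.92 in hnrnpa0a, 2.89 and 4.30 in hnrnpa0b, and 2.13 and 1.47 in hnrnpul1.

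A few genes held a large part of the members' new reads. Whether new reads were more concentrated than total reads was not tested. In the 6 hpf polyA+ library hnrnpa0b, hnrnpa0l, srsf5a, hnrnpabb, hnrnpaba and hnrnpub held 47.0% of the members' new reads, and in the ribo-depleted library hnrnpa0l, hnrnpub, hnrnpabb, prpf8, srsf5a and sf3b1 held 36.0%. hnrnpa0l alone had 608 and 262 new CPM at an NTR of 20.2% and 18.2%.

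Stored RNA was taken as reads multiplied by 1 minus the NTR and scaled by the total reads. It is an estimate of unlabeled RNA relative to the library, not an amount of maternal RNA per embryo. A rise of stored reads therefore does not show that the maternal supply grew. Stored reads fell for hnrnpa0l.1, hnrnph3, snrpd2 and prpf18 and rose for hnrnpa0a, srsf5a and hnrnpa0b. The 3 higher members (4.11%) stand beside 8.42% of all 15434 genes tested and the 4 lower members (5.48%) beside 18.2%. Over all genes 31.7% of the calls were higher, and 46.0% with scaling factors computed on the stored reads themselves. Under that scaling 5 members were higher and 4 lower, beside 1675 and 1969 of all 15325 genes tested. DESeq2 called 5 members higher (6.85%, beside 6.22% of all genes) and 3 lower (4.11%, beside 11.3%).

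The median log2 change of stored reads was 0.61 for members and -0.19 for all genes, and 63 of 73 members (86.3%) were above 0, against 43.6% of all genes. As with total reads, the polyA+ libraries gave a smaller median, 0.17 for members and -0.21 for all genes, than the ribo-depleted libraries, 0.96 and -0.19. The sign was the same in both types for 58 members, again not counted over all genes. Summed over the members, stored CPM at 6 hpf were 1.17 times those at 1 hpf in the polyA+ libraries and 1.53 times in the ribo-depleted libraries.

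snrpd2 had fewer stored and more new reads at 6 hpf. It had 17.7 and 20.1 stored CPM at 6 hpf, against 63.4 and 58.3 at 1 hpf, so that both 6 hpf libraries lay below both 1 hpf libraries (log2 change -1.53 ± 0.44, edgeR adjusted p = 0.00355). Its new reads were 20.1 and 22.1 CPM at 6 hpf, against 0 in both 1 hpf libraries. Its total CPM at 6 hpf were 0.596 and 0.723 times those at 1 hpf. This change of total reads did not pass the test (-0.45 ± 0.45, edgeR adjusted p = 0.466). prpf18, a factor of the second splicing step, had 15.0 and 20.6 stored CPM, against 37.0 and 67.2, again without overlap (-1.35 ± 0.44, edgeR adjusted p = 0.0104).

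hnrnpa0l.1 had 1.60 and 3.02 stored CPM at 6 hpf, against 13.9 and 6.75 at 1 hpf (log2 change -1.91 ± 0.54, edgeR adjusted p = 0.00274), and hnrnph3, whose NTR was 0 in all 4 libraries, fell as in total reads (-1.63 ± 0.54, edgeR adjusted p = 0.0127). DESeq2 called neither, with adjusted p = 0.0773 and 0.157.

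The stored rises of the other 3 genes were sensitive to the NTR. srsf5a had a log2 change of 2.36 ± 0.51 (edgeR adjusted p = 4.33e-05), hnrnpa0a of 2.69 ± 0.47 (edgeR adjusted p = 2.97e-07) and hnrnpa0b of 1.96 ± 0.58 (edgeR adjusted p = 0.00448). When the NTR at 6 hpf was divided by the median of genes with hardly any read at 1 hpf, an alternative chosen after seeing the data, the change of srsf5a became -0.57 (edgeR adjusted p = 0.372) and that of hnrnpa0b 1.20 (edgeR adjusted p = 0.0969). Only hnrnpa0a then stayed called higher, at 1.56 (edgeR adjusted p = 0.00621), while the 4 falls stayed called and snrpg joined them. Of all 14720 genes tested with rescaled NTR, 382 were higher and 3301 lower. In fits with stage alone that left out any one library, edgeR called 0 members for stored reads, while 0 to 514 of all genes were higher and 0 to 74 lower.

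**Figure D4:**
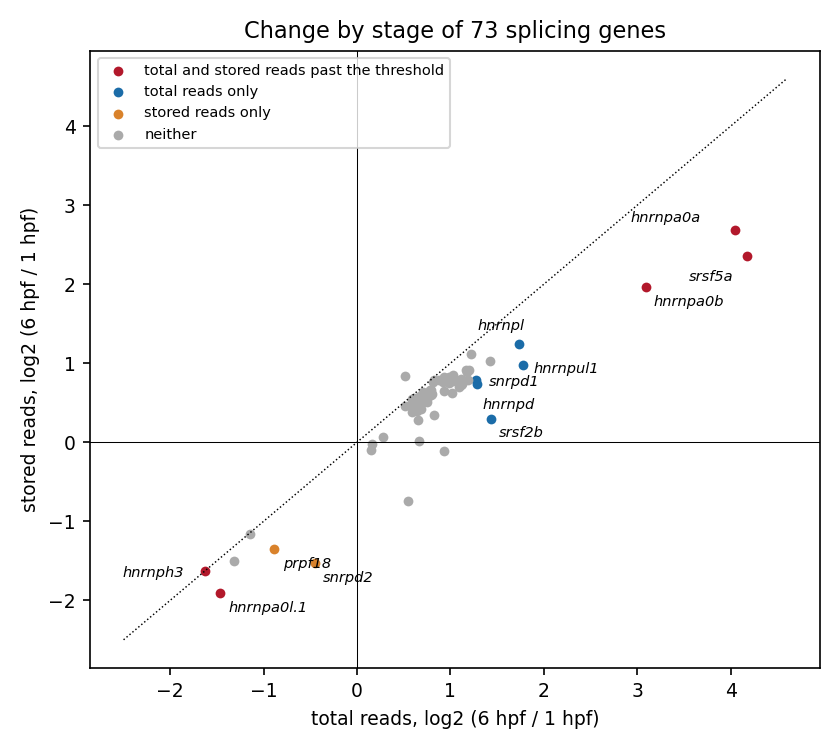
Log2 change, 6 hpf over 1 hpf, of total reads (x axis) and of stored reads (y axis) for the 73 members, colored by which of the edgeR tests passed the threshold. The dotted line marks equal changes. Most members lie right of 0 and just below the line, while srsf5a, hnrnpa0a, snrpg, srsf2b, hnrnpa0b and snrpd2 lie farthest below it.

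A small set of members carried an NTR of at least 5% at 1 hpf, counting libraries where the gene had at least 100 reads. With ribo-depletion these were srsf10b (22.98%), sf3a1 (19.7%), snrpd1 (18.1%), snrpa1 (17.3%), hnrnpul1l (8.53%), prpf4ba (7.14%) and srsf11 (5.66%), or 7 of the 70 members at that depth, beside 7.09% of all genes. All of these 7 had an NTR of at most 0.09% in the 1 hpf polyA+ library. In that library only hnrnpa0l.1 reached 5%, with 6.19% on 134 reads. The maternal marker h1m, of which the paper recovered only pre-existing copies in single cells, had 12.3% with ribo-depletion and 0.47% with polyA+ selection at 1 hpf. At 6 hpf it had 20.4% and 6.44%. The other maternal markers were under 5% in both 1 hpf libraries. Whether such an NTR at 1 hpf reflects new RNA was not tested.

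The conversions behind these values differed between genes. The NTR of hnrnpa0l.1 in the 1 hpf polyA+ library rested on 18 conversions in 1971 covered T bases. In the 1 hpf ribo-depleted library srsf11 had 0.454% of covered T bases converted, while sf3a3, with an NTR of 0.01% there, had 0.503%. In sf3a1, a subunit of SF3A, 1.35% of covered T bases read as C in the 1 hpf ribo-depleted library (95% Wilson interval 1.27 to 1.42%), against 0.149% (0.119 to 0.186%) in the 1 hpf polyA+ library. At 6 hpf the same 7 genes had a higher NTR in the ribo-depleted than in the polyA+ library in 7 of 7 cases, by a median of 12.7 points and by 1.40 to 22.3 points. Among the other 61 members with the depth for it, 27 had the higher NTR in the ribo-depleted library and the median difference was -0.23 points. sf3a1 had 11.8% and 34.2% at 6 hpf, and snrpd1 had 25.2% and 44.1%. Subtracting the 1 hpf NTR in the same library type left the members' median at 13.5% and 13.6%.

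The libraries also differed by type. Members were higher in the polyA+ than in the ribo-depleted libraries in 18 cases and lower in 0, by edgeR with stage as a covariate (Benjamini-Hochberg threshold 0.05). The 18 higher members (24.7%) stand beside 5.19% of all genes, and the 0 lower members beside 6.44%. At an unadjusted p under 0.05 the edgeR counts were 28 higher (38.4%, beside 9.99% of all genes) and 0 lower (beside 13.3%), and DESeq2 called 29 higher (39.7%, beside 5.09%) and 0 lower (beside 3.51%). The edgeR calls were made of 9 hnrnp genes, 8 srsf genes and sf3b4, with none among the snrp and prpf genes, while DESeq2 also called snrpb2 and snrpc. In edgeR fits with library type alone, with all libraries or without any one of them, 0 of all genes were called, members included.

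The median log2 ratio, polyA+ over ribo-depleted, was 0.92 for members and -0.07 for all genes. It was 0.51 for members at 6 hpf and 1.43 at 1 hpf, where all genes had -0.07 and 0.01. The larger ratio was at 1 hpf in 62 of 73 members, a count not made over all genes. By arithmetic this is the same contrast as the smaller change by stage within the polyA+ libraries given above, not a separate observation. Without replicates of a library type at a stage, this difference between the stages was not tested. The srsf genes had the highest family median (1.60) and the prpf genes the lowest (0.41). What belongs to the polyA tail, the kit, the layout or the instrument cannot be told apart.

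hnrnpaba, an hnRNP gene of the A/B type, had 1324 TPM in the polyA+ and 21.9 TPM in the ribo-depleted library at 6 hpf, and 1003 and 11.0 TPM at 1 hpf (log2 ratio 5.79 ± 0.91, edgeR adjusted p = 1.23e-08). Its paralogue hnrnpabb had 3060 and 538 TPM at 6 hpf, and 2570 and 371 TPM at 1 hpf, and did not pass the main test (2.23, edgeR adjusted p = 0.107). It was called by DESeq2 and by edgeR with total-count scaling or without the filter on low counts. Both genes were higher in the polyA+ library at each stage, and the balance of the pair depended on it.

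hnrnpa1b followed, with 2728 and 82.4 TPM at 6 hpf and 1901 and 43.1 TPM at 1 hpf (4.83 ± 0.82, edgeR adjusted p = 1.58e-07). sf3b4, an SF3B subunit and the only sf3a or sf3b gene that edgeR called here (DESeq2 also called sf3a1 and sf3b2), had 910.5 and 35.4 TPM at 6 hpf and 732 and 26.7 TPM at 1 hpf (4.31 ± 0.64, edgeR adjusted p = 1.34e-09). hnrnpm had 364 and 22.5 TPM at 6 hpf and 242 and 8.14 TPM at 1 hpf (4.03 ± 0.69, edgeR adjusted p = 2.01e-07). In each of these genes both polyA+ libraries lay above both ribo-depleted libraries.

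**Figure D5:**
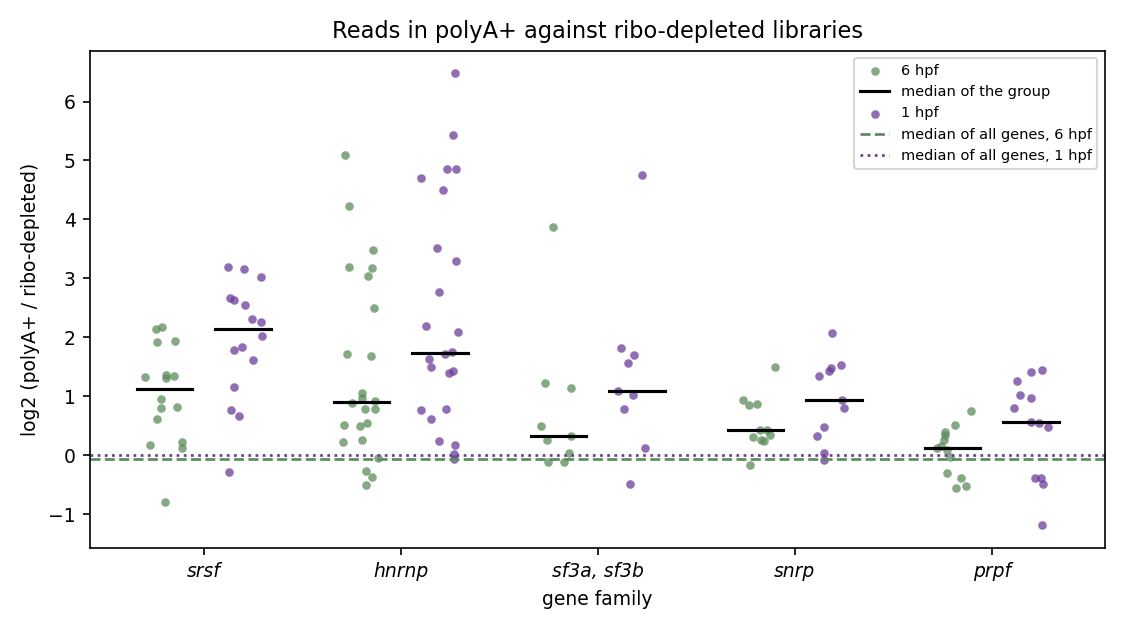
Log2 ratio of reads, polyA+ over ribo-depleted, by gene family (y axis), at 6 hpf (left in each family) and at 1 hpf (right). Points are the 73 members, black bars are family medians, and the dashed and dotted lines are the medians of all genes, -0.07 and 0.01. The family medians are higher at 1 hpf than at 6 hpf in each family.

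In level, the members were abundant mRNAs at both stages. Their median was 382 and 130 TPM in the 6 hpf polyA+ and ribo-depleted libraries, against 278 and 115 TPM at 1 hpf, where all genes with at least 100 reads had medians of 40.2 and 18.3 TPM at 6 hpf and 49.0 and 33.8 TPM at 1 hpf. The members made up 4.06% and 1.99% of all reads at 6 hpf, against 2.92% and 1.12% at 1 hpf.

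hnrnpa0l was the most abundant by mean TPM, with 4674 and 1275 TPM at 6 hpf, against 3207 and 686 TPM at 1 hpf. hnrnpabb and snrpb came next, and snrpb had 2401 and 1106 TPM, against 2180 and 793 TPM. Among the srsf genes, by TPM averaged over the 4 libraries, srsf6a (1472 and 185 TPM, against 1299 and 143 TPM) and srsf7a (1026 and 233 TPM, against 1128 and 178 TPM) led. The order differed between library types: in both ribo-depleted libraries srsf1a, srsf11 and srsf3b exceeded srsf7a, and srsf7a exceeded srsf6a, while srsf6a was the highest srsf gene in both polyA+ libraries. None of the 5 genes passed the edgeR test by stage, and hnrnpa0l was called higher by DESeq2 (log2 change 1.17, adjusted p = 0.0446).

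Of the spliceosome subunits, snrpc had 1433 and 426 TPM at 6 hpf, against 1209 and 282 TPM at 1 hpf. sf3a2 had 702 and 282 TPM, against 701 and 213 TPM. prpf19, the ubiquitin ligase that gives its spliceosomal complex its name, had 706 and 334 TPM, against 711 and 263 TPM, and prpf31, a tri-snRNP assembly factor, had 457 and 206 TPM, against 252 and 177 TPM. Of these, prpf31 was called higher by DESeq2 only (log2 change 0.99, adjusted p = 0.0465).

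A list of other splicing genes outside the name rule, of which 117 of 121 were found by name, gave the setting. Calls given here are by edgeR unless DESeq2 is named. In total reads at 6 hpf, 14 of the 116 tested were higher (12.1%, beside 18.3% of all genes). A further 7 were lower (6.03%, beside 14.4%). In stored reads 4 were higher (3.45%, beside 8.42%) and 12 lower (10.3%, beside 18.2%). In polyA+ libraries 13 were higher (11.2%, beside 5.19%) and 1 lower (0.862%, beside 6.44%). DESeq2 called 32 of the 116 higher and 5 lower in total reads, beside 14.4% and 9.08% of all genes. In stored reads it called 11 higher and 7 lower, beside 6.22% and 11.3%. Under DESeq2 the share of higher calls was thus larger in this list than among all genes, for total and for stored reads. The list's median NTR at 6 hpf was 12.3% and 12.4%, and its median log2 change of total reads was 0.62. The members' medians were 13.8%, 15.6% and 0.79, and the difference between the lists was not tested.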

How the data were processed

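The labels give 2 samples per stage, but the deposited rows name only the stage and the sequencing instrument. Libraries were therefore identified by stage and, through the study's methods, by instrument as polyA+ (NextSeq) or ribo-depleted (NovaSeq). With stage and library type both fitted, the residual spread is only the disagreement of polyA+ and ribo-depleted libraries over the change by stage. The p-values therefore hold no spread between replicates of the same stage and library type. The authors used cutadapt for trimming, STAR for alignment to GRCz11 and then GRAND-SLAM, and deposited per gene the estimated counts of reads and of T-to-C conversions, not normalized. The deposited NTR is the fraction of a gene's RNA estimated as new, and the deposited coverage counts the T bases that reads covered. Here CPM (reads scaled to the library total) and TPM were computed from reads and gene length, new and stored reads as reads times NTR and times 1 minus NTR, and T-to-C shares with 95% Wilson intervals, which cover counting error only.

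Counts were rounded to whole numbers and tested over all genes with edgeR 4.0.16 in R 4.3.3 (TMM, filterByExpr, quasi-likelihood test, Benjamini-Hochberg adjustment at 0.05), with stage and library type in the design. This leaves 1 residual degree of freedom. Stored reads used the library sizes and TMM factors of the total reads, and the error of the NTR is not in the test. DESeq2 1.42.0 was the alternative. Ratios within 1 library type or stage had 0.5 reads added. Python 3.11.15 and pandas 2.3.3 were used for the rest.

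The members, the gene lists and the tests were chosen with earlier results of these data known. Genes were named by rule: the 2 most abundant members of each family, the 6 largest rises and falls by stage, the 6 highest and lowest NTRs, the 3 largest changes of stored reads each way, the 4 largest differences by library type each way, members with an NTR of at least 5% at 1 hpf, and the 4 paralogue pairs that differed most. Few reads make an NTR uncertain, so NTRs were summarised at 100 reads or more.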

Additional observations from a re-analysis of the deposited data

Results flagged for a closer look

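For 9 members the change by stage had opposite signs in the library types, by more than 0.1 on the log2 scale in each, for stored reads and in 4 of them also for total reads. This difference between the library types was not tested, since each rests on 1 library per stage and type. The same count was not made over all genes, so it does not set the members apart. All values are log2 changes, 6 hpf over 1 hpf, first in the polyA+ and then in the ribo-depleted libraries. srsf7a had -0.14 and 1.17 for total reads, and -0.20 and 1.11 for stored reads. snrpa1, the gene of the U2 snRNP protein A′, had -0.26 and 0.82 for total reads, and -0.44 and 0.57 for stored reads. hnrnpr had -0.12 and 1.46 for total reads, and -0.22 and 1.33 for stored reads. prpf38b had -0.37 and 0.68 for total reads, and -0.57 and 0.52 for stored reads.

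The others did so for stored reads: the branch site protein gene sf3a2 (-0.10 and 1.10), prpf19 (-0.11 and 1.05), prpf8 (-0.12 and 0.88), the SR protein gene srsf3b (-0.23 and 1.08) and the Sm protein gene snrpf (0.68 and -0.88). The polyA+ libraries gave the lower value in 8 of the 9, snrpf being the exception. For total reads 62 of the 73 members had the smaller change in the polyA+ libraries, so this lean is not particular to the 9. Of the 9 genes, 0 passed the edgeR test by stage. Choosing genes with opposite signs made this likely beforehand, because the residual spread of the test is that same disagreement.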

How the results depend on the processing

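No paired analysis was possible because the deposited rows carry no replicate number. Members called higher for total reads by stage numbered 8, with DESeq2 22, with stage alone in the design 0, and without any one library 0 to 2. Members called lower numbered 2, with DESeq2 1, with stage alone 0, and without any one library 0. For stored reads 3 were higher, with DESeq2 5, with scaling factors of the stored reads themselves 5, with rescaled NTR (added after seeing the data) 1, and with stage alone or without any one library 0, while 4 were lower, with stage alone or without any one library 0. By library type 18 were higher, with DESeq2 29, and with library type alone or without any one library 0. Fits without a library also lost the other factor of the design. Total-count scaling and no filter on low counts kept these counts within 1.5 times.

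The new share of the members' reads was 16.1% and 15.2% in the 6 hpf polyA+ and ribo-depleted libraries. It became 16.0% and 15.4% when weighted by reads over gene length. Over all genes that weighting gave 17.6% and 25.9%, against 16.4% and 18.7% by reads, so in the ribo-depleted library members fell further below all genes. Without the 3 members with the most reads, the members' share was 16.6% and 14.8%. With a minimum of 10, 50, 100 or 1000 reads, the members' median NTR ran from 13.0% to 13.8% in the 6 hpf polyA+ library. In the 6 hpf ribo-depleted library it ran from 13.9% to 15.6%. Each minimum keeps a part of the same genes in the same library, so these medians are not independent.

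Directions were compared for genes named for level (in total reads by stage), for a change by stage or for a difference by library type. Genes named only for their NTR or as pairs were not included. Directions turned for the stored reads of srsf5a with rescaled NTR (-0.57). In the polyA+ libraries alone they turned for total reads by stage of prpf19 (-0.012), sf3a2 (-0.00026) and srsf7a (-0.14). Otherwise they turned only where a library was left out. For total reads by stage the log2 change then ran from -0.65 to 2.37 for hnrnpabb, -0.11 to 1.22 for prpf19, -0.20 to 1.42 for sf3a2, -2.62 to 4.14 for sf3b4, -0.12 to 1.88 for snrpc, -1.17 to 2.59 for srsf6a and -0.69 to 1.94 for srsf7a, none of them called. It ran from -1.14 to 5.09 for stored reads of hnrnpa0b, and by library type from -0.11 to 6.22 for hnrnpa0a and from -0.93 to 5.58 for srsf5a, in each case turning without the 6 hpf polyA+ library.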
